A study of Mus musculus with 9 samples.

Results

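The genes described here encode the proteins of the mitochondrial ribosome (mitoribosome). They were taken by name, as every protein-coding gene whose symbol begins with Mrpl or Mrps and a number, which gave 78 of the 56748 genes in the deposited count table. RNA was measured in 9 bulk libraries of hematopoietic stem cells (HSCs) from mouse bone marrow, 3 per group. yHSCs were young HSCs of mice aged 6 to 10 weeks. The other 2 groups were fractions of pre-aged HSCs (paHSCs) of mice aged 14 to 16 months, sorted for low (Selp_low) or high (Selp_high) surface P-selectin, an adhesion protein of platelets and endothelium. All mice were female and of C57BL/6 background, and the labels name no transgene, deletion or treatment in any group. Replicates carry a number, and the labels do not tie them to single animals, so p-values measure the spread between these libraries.

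The mitoribosome translates the few proteins encoded by mitochondrial DNA, all of them core subunits of the respiratory chain and ATP synthase. Its rRNAs come from mitochondrial DNA, whereas its proteins are encoded in the nucleus, made in the cytosol and imported. Compared with the bacterial ribosome from which it descends, it has less rRNA and many added proteins. HSCs are known for low translation rates and a low reliance on mitochondrial respiration, and both rise when they are activated.

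By general knowledge of the structure, 51 of the 78 genes encode large-subunit proteins and 26 small-subunit proteins. Mrps30 and Mrps18a belong to the large subunit despite their names. Mrps36 is now known as a component of the 2-oxoglutarate dehydrogenase complex and was counted with neither subunit. Among the 78, 47 have bacterial counterparts, 30 are specific to mitochondria, and Mrpl55 was left unassigned. They lie on 17 chromosomes. A divergent protein-coding neighbour that starts within 1000 bases upstream was present for 18 of them (23.1%), compared with 6.77% of all 21970 protein-coding genes.

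The libraries held 24866975 to 35375310 counts on genes, and members took 0.309% (Selp_low 2) to 0.603% (Selp_low 1) of them. Selp itself measured 21.1 to 31.8 CPM (counts scaled by library size and TMM factors) in yHSCs, 28.5 to 108 in Selp_low and 259 to 662 in Selp_high libraries. The 8 HSC markers summed to 1470, 1254 and 764 CPM in Selp_low 1 to 3, below the 2068 to 3095 of every Selp_high library and overlapping the 1040 to 2221 of yHSCs. One of them, Kit, was at 101 to 173 CPM in Selp_low and 201 to 636 in the other 6 libraries. RNA of other cells was also present. Neutrophil markers summed to 205118 CPM in Selp_low 3, 66578 in yHSC 1 and 40549 in Selp_high 3, and to between 483 and 17816 elsewhere. B and plasma cell markers summed to 102771 CPM in Selp_low 2, 5347 in Selp_low 1, 3639 in Selp_high 2 and at most 627 in the others. Megakaryocyte and platelet markers summed to 993 to 5937 CPM in Selp_high, 125 to 1944 in Selp_low and 111 to 170 in yHSC libraries. Erythroid markers were highest in Selp_low 1, at 2964 CPM, and yHSC 1, at 2230, and lay between 201 and 1034 elsewhere. Genes with a count numbered 21094 in yHSC 2, 21755 in Selp_high 1 and 25192 in Selp_high 3, compared with 31236 to 34143 in the other 6 libraries. In bulk RNA, more RNA per cell and more cells of a type that holds more of it cannot be told apart.

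Of the 78 genes, 77 passed the filter on low counts in each comparison. The exception was Mrpl53, a large-subunit protein specific to mitochondria (chromosome 6, 83086021 to 83086920, plus strand; positions here are as in the deposited table, on mm39 by the submitters' processing notes). It had 0 counts in all 9 libraries, which allows up to 0.0848 to 0.121 CPM per library. Its whole span lies within Gm42688, a protein-coding gene on the same strand. Another protein-coding gene overlapped 25 members in all, 4 of them on the same strand (Mrpl53, Mrps6, Mrps24 and Mrps34). The strand setting of the counting is not given in the sources used here, so reads of overlapping genes could be split or lost. The 53 members with no such overlap are given beside the whole set below.

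Per kilobase of gene length, Mrpl28 had the highest mean level over the 9 libraries, at 83.9 CPM per kb (48.1 to 111). Mrps21 followed at 75.3 (34.6 to 141) and Mrpl34 at 65.8 (40.7 to 92.6), all 3 of them proteins with bacterial counterparts. These ranges overlap, so their order is not separated from the spread. At the lower end, after Mrpl53, stood Mrps34 (also a same-strand overlap) with 3.56 CPM per kb (2.01 to 5.25). Mrps35 was next with 4.997 (4.23 to 5.90), and both are mitochondria-specific small-subunit proteins. The 3 lowest and 3 highest genes were therefore apart in every library.

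The summed level of all members was 4426, 3196 and 3358 CPM in yHSC 1 to 3. In Selp_low paHSCs it was 5510, 5513 and 5683 CPM, and in Selp_high paHSCs 5260, 3830 and 4118 CPM. On this scale the 3 Selp_low libraries were above all 6 others and close to each other, while yHSC and Selp_high libraries overlapped. As a share of all counts, members took 0.603%, 0.309% and 0.461% in Selp_low 1 to 3. The first is the highest and the second the lowest of all 9 libraries. The separation and closeness therefore rest on the TMM factors, which were 0.56 and 0.81 in Selp_low 2 and 3. Markers of T and NK cells also set the Selp_low libraries apart, with 285, 888 and 602 CPM in Selp_low 1 to 3 and 50.9 to 108 CPM in the other 6 libraries. Of these 5 markers, Cd3g, Trac, Cd3d and Cd3e stood out in Selp_low 1 and 2, and in Selp_low 3 only Nkg7 did, at 599 CPM. HSC markers were lower in all Selp_low than in all Selp_high libraries, as given above. The part of either in the members' levels was not tested. Group means were 3660 ± 668, 5569 ± 99.0 and 4403 ± 756 CPM (SD, n = 3) for yHSCs, Selp_low and Selp_high paHSCs. Of the 77 detected members, 57 had their lowest group mean in yHSCs, an intermediate one in Selp_high and the highest in Selp_low paHSCs. Another 11 were lowest in yHSCs and highest in Selp_high paHSCs.

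**Figure D1:**
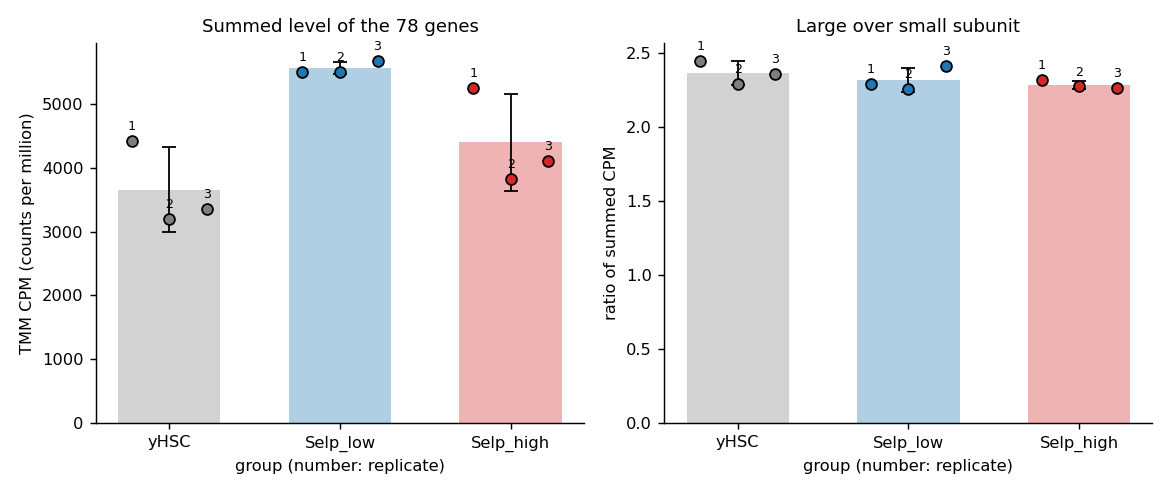
Summed TMM CPM of the 78 genes (left) and the ratio of large-subunit to small-subunit sums (right) by group; points are libraries with their replicate number, bars are group means and whiskers are SD (n = 3). On the TMM scale the Selp_low libraries lie between 5510 and 5683 CPM, above all others, while the subunit ratio stays between 2.25 and 2.45 in all 9 libraries.

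Both subunits shared this pattern. Large-subunit genes summed to 2207 to 3115 CPM in yHSCs, 3780 to 3975 in Selp_low and 2635 to 3656 in Selp_high paHSCs. Small-subunit genes summed to 965 to 1274, 1651 to 1678 and 1160 to 1579 CPM in the same order. The ratio of the 2 sums was 2.36 ± 0.0792, 2.32 ± 0.0818 and 2.28 ± 0.0285 (SD, n = 3), so the group means differed by no more than about the spread of the libraries within them. Of single members, the median coefficient of variation of TMM CPM within a group was 10.9% in Selp_low paHSCs, 20.5% in yHSCs and 19.7% in Selp_high paHSCs.

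Single libraries stood out in the other 2 groups. yHSC 1, the yHSC library with the most neutrophil and erythroid marker RNA, was the highest yHSC library for 60 of 77 members. Selp_high 1, with the fewest genes detected among paHSCs, was the highest of its group for 65 of 77. In Selp_low paHSCs no library led by TMM CPM, with 30, 18 and 29 members highest in libraries 1 to 3. The part of the marker RNA in these levels was not tested.

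**Figure D2:**
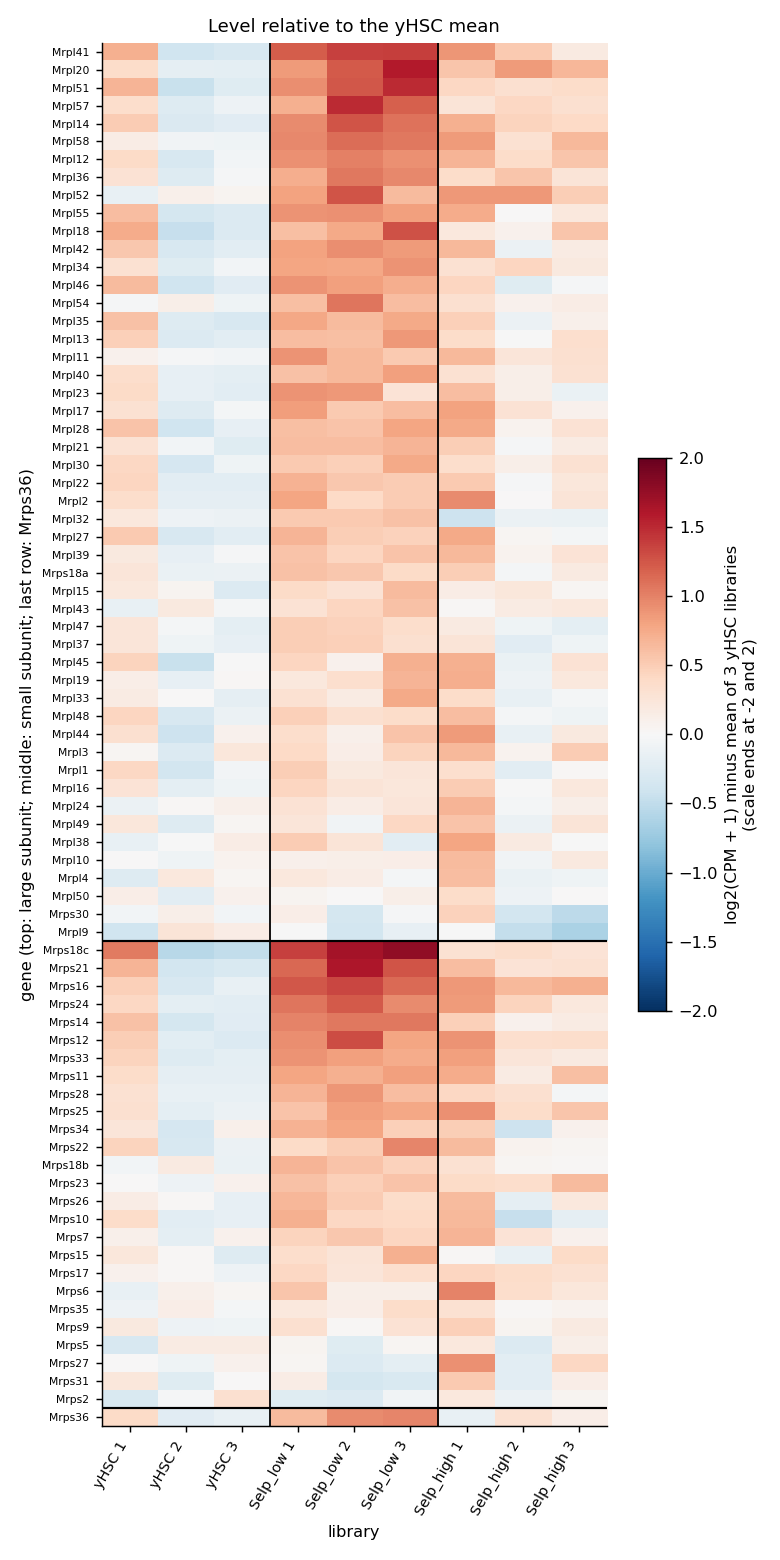
Level of each of the 77 detected members (rows) in each library (columns), as log2(CPM + 1) minus the mean of the 3 yHSC libraries; large-subunit genes are on top, small-subunit genes below, Mrps36 last, each block ordered by its Selp_low mean. Most rows are red in the 3 Selp_low columns and paler in Selp_high 2 and 3, and Mrpl9, Mrps2, Mrps31 and Mrps27 stay near 0 or below in Selp_low paHSCs.

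The comparison of Selp_low paHSCs with yHSCs asks how pre-aged HSCs with little P-selectin differ from young ones. In this comparison 73 of 77 members had a higher fitted level in Selp_low paHSCs, and 4 a slightly lower one. The median log2 fold change was 0.66 over the members, 0.08 over all 20437 genes tested and 0.03 over the protein-coding ones. A log2 fold change above 0 was found for 55.1% of all genes tested. Unadjusted p was under 0.05 with a higher level for 39 members and with a lower level for 0, while 7.11% of all genes passed in the higher direction. All 3 Selp_low libraries were above all 3 yHSC libraries for 54 members, compared with 8.44% of all genes. None of the members, and 0% of all genes, met the study's thresholds of an adjusted p of 0.05 or less and a 2-fold difference by edgeR's quasi-likelihood test, for which the lowest adjusted p of any member was 0.332. DESeq2, the study's tool, gave 13 members an adjusted p of 0.05 or less, all higher and 7 of them at least 2-fold. Of all genes it adjusted, 4.57% passed in that direction and 3.79% were also at least 2-fold.

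The largest difference belonged to Mrps18c, a small-subunit protein with a bacterial counterpart (chromosome 5, 100946493 to 100952337, plus strand). Its levels were 44.6, 14.1 and 14.8 CPM in yHSC 1 to 3 and 55.8, 68.8 and 74.5 CPM in Selp_low 1 to 3. The groups did not overlap, though yHSC 1 came near the lowest Selp_low library. The log2 fold change was 1.52 ± 0.52 (SE), with an unadjusted p of 0.0223 and an adjusted p of 0.360 by edgeR. Mrps21, another small-subunit protein of bacterial descent (chromosome 3, 95769946 to 95778831, minus strand), measured 54.1, 25.5 and 26.7 CPM in yHSCs and 75.1, 104 and 81.3 in Selp_low paHSCs. Its log2 fold change was 1.39 ± 0.39 (SE; edgeR adjusted p = 0.332, DESeq2 adjusted p = 0.0476). Mrpl41, a mitochondria-specific protein of the large subunit, measured 44.2, 20.0 and 21.1 against 63.1, 69.8 and 71.0 CPM, a log2 fold change of 1.35 ± 0.38. In all 3 genes yHSC 1 stood well above the other 2 yHSC libraries.

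Mrpl58 and Mrpl52 were steadier among the yHSCs, whereas in Mrps16 and Mrpl20 yHSC 1 again stood well above the other yHSC libraries. Mrpl58 encodes a large-subunit protein with peptidyl-tRNA hydrolase activity that releases stalled chains from the mitoribosome (chromosome 11, 115294578 to 115303500, plus strand). It measured 19.5, 16.7 and 16.5 CPM in yHSCs and 35.1, 39.0 and 37.5 in Selp_low paHSCs, a 2.28-fold higher fitted level. It had the lowest p of all members in this comparison (0.0015 unadjusted, 0.332 adjusted by edgeR, 0.00106 adjusted by DESeq2). Mrpl52, a mitochondria-specific large-subunit protein, measured 19.9, 24.0 and 23.2 against 39.9, 55.1 and 35.1 CPM (log2 fold change 1.07 ± 0.27). Mrps16, of the small subunit, measured 53.9, 30.4 and 34.3 against 92.0, 98.1 and 85.7 CPM (1.31 ± 0.30). Mrpl20, a large-subunit protein with a bacterial counterpart, measured 49.8, 33.6 and 33.2 against 69.8, 90.9 and 117 CPM (1.35 ± 0.31). Mrps24 and Mrpl57 completed the 6 lowest p-values, with log2 fold changes of 1.18 ± 0.28 and 1.26 ± 0.32. DESeq2 gave each of these members an adjusted p between 0.0133 and 0.0264, apart from the lower value of Mrpl58 above.

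**Figure D3:**
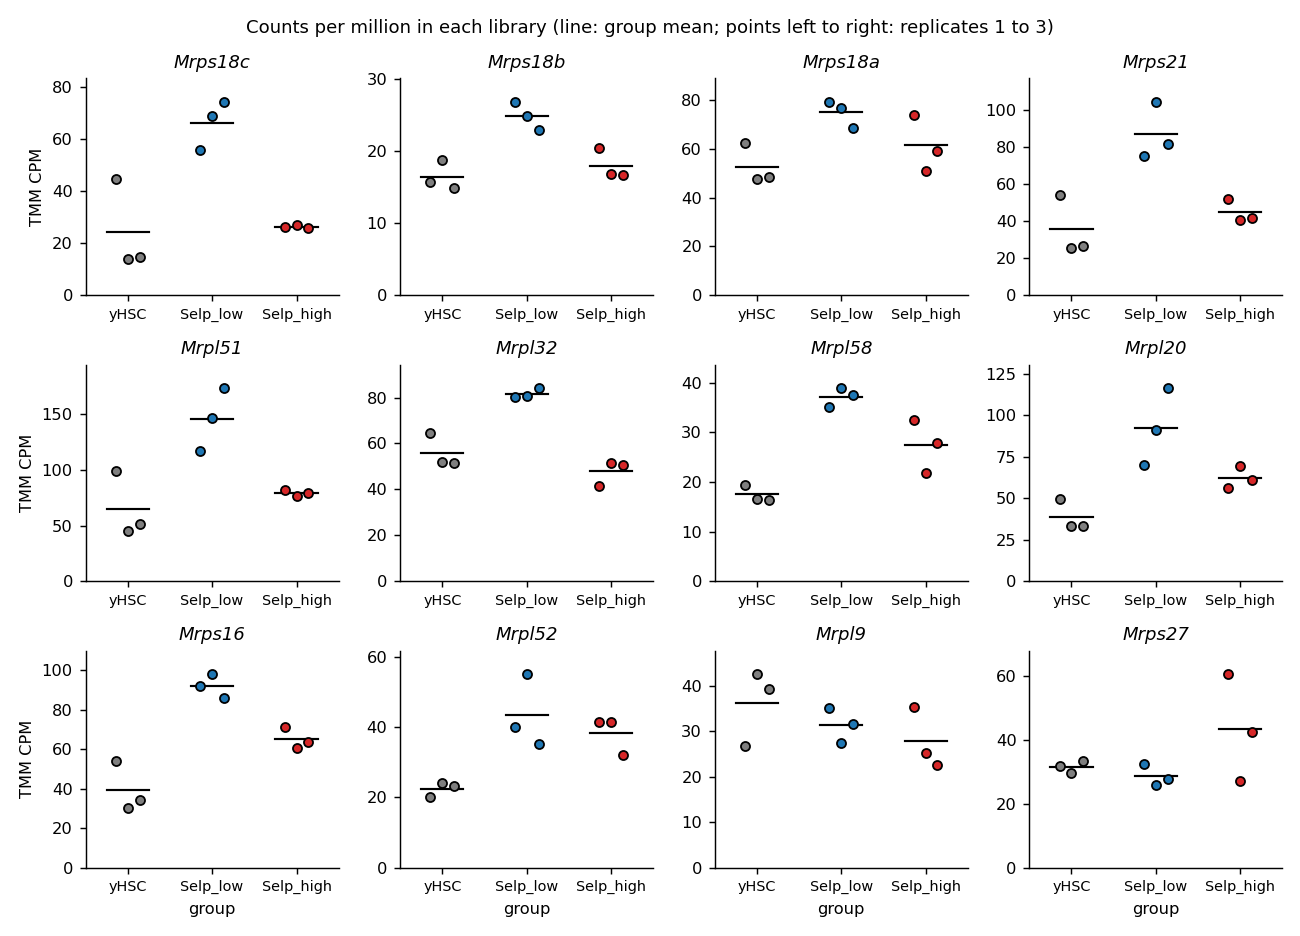
TMM CPM of 12 members in every library by group; each panel has its own linear axis from 0, points are replicates 1 to 3 from left to right, and lines are group means. Mrps18c lies at 55.8 to 74.5 CPM in Selp_low, 25.7 to 27.1 in Selp_high and 14.1 to 44.6 in yHSC libraries, while Mrpl9 and Mrps27 show no such step.

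Members named for their roles had a range of values in this comparison. Mrps12, at the decoding centre, had a log2 fold change of 1.10 ± 0.33 (SE). Mrpl12, of the stalk that recruits translation factors, had 1.02 ± 0.27, and Mrpl11, at the stalk's base, 0.82 ± 0.23. Mrps7, of the small-subunit head, had 0.57 ± 0.22. All 4 had no overlap between the groups and unadjusted p-values between 0.00764 and 0.0364. The core proteins Mrps5 (0.05 ± 0.22) and Mrpl3 (0.42 ± 0.24), and Mrpl44, with a ribonuclease-III-like fold (0.42 ± 0.29), had overlapping libraries. Mrps22 (0.71 ± 0.32), a small-subunit protein in which inherited human mutations are known, also overlapped. Mrps34 (0.83 ± 0.36) and Mrps6 (0.40 ± 0.26) did not overlap but had unadjusted p-values of 0.0569 and 0.165.

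The 4 members with a lower fitted level in Selp_low paHSCs were Mrps2 (log2 fold change -0.11 ± 0.24), Mrpl9 (-0.09 ± 0.25), Mrps31 (-0.07 ± 0.29) and Mrps27 (-0.04 ± 0.23). Each of them had overlapping groups and an unadjusted p of at least 0.655. Mrps2 measured 42.1, 51.2 and 65.1 CPM in yHSCs and 44.0, 42.7 and 49.4 in Selp_low paHSCs. Mrpl9 measured 26.7, 42.6 and 39.4 against 35.3, 27.4 and 31.7 CPM. These genes encode proteins of both subunits, 2 of bacterial and 2 of mitochondria-specific origin.

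Medians were alike across subunits and origins. The median log2 fold change of Selp_low paHSCs over yHSCs was 0.65 for 50 large-subunit and 0.68 for 26 small-subunit genes. It was 0.66 for 47 genes with bacterial counterparts and 0.66 for 29 mitochondria-specific ones. The 53 members free of overlap with another protein-coding gene also had a median of 0.66, with 28 higher at an unadjusted p under 0.05. Mrps36, the dehydrogenase component, had 0.95 ± 0.29 (SE), within the range of the ribosomal members.

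Gene length went with the size of the difference. Over the 77 members, Spearman's rho between length in the deposited table and log2 fold change was -0.44 for Selp_low paHSCs over yHSCs. The median was 0.83 for 38 members shorter than 2394 bases and 0.55 for 39 longer ones. Over 14998 protein-coding genes rho was -0.18, and the medians either side of the same length were 0.42 and -0.04. Members share their libraries, so these are descriptions across genes. Members were above protein-coding genes on both sides of this boundary, and the part of length in their levels was not tested further.

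**Figure D4:**
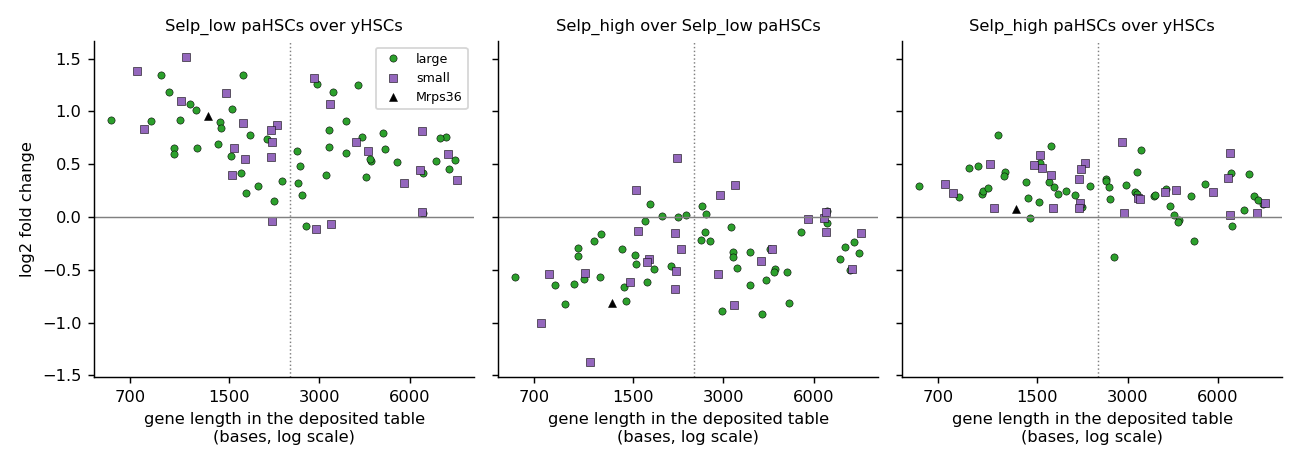
Fitted log2 fold change of each member against gene length (log scale) in the 3 comparisons; circles are large-subunit, squares small-subunit genes, the triangle Mrps36, and the dotted line the median member length of 2394 bases. Shorter members lie higher in Selp_low paHSCs over yHSCs (rho -0.44) and lower in Selp_high over Selp_low paHSCs (rho 0.29).

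The result for Selp_low paHSCs over yHSCs depended on libraries and scaling in size. Without yHSC 1 the median was 0.83 with 52 members at an unadjusted p under 0.05, and without yHSC 2 or yHSC 3 it was 0.56 or 0.62 with 17 such members. Without Selp_low 2 it was 0.66 with 23. With both Selp_low 2 and Selp_low 3 left out it was 0.52, with 4. TMM factors were 0.56 and 0.81 in Selp_low 2 and 3 and 1.07 to 1.18 in the other libraries. When counts were scaled by library totals alone, the median of all genes shifted from 0.08 to -0.47 and that of the members from 0.66 to 0.11; the members' median stood 0.57 above all genes with TMM factors and 0.58 above them with totals.

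The comparison of Selp_high with Selp_low paHSCs asks what sets the 2 pre-aged fractions apart, and it shares its Selp_low libraries with the comparison above. Here 66 of 77 members had a lower fitted level in Selp_high paHSCs and 11 a higher one. The median log2 fold change was -0.37 over the members, -0.11 over all 20370 genes tested and 0.00 over the protein-coding ones, and 55.2% of all genes were below 0. Unadjusted p was under 0.05 with a lower level for 17 members and with a higher level for 0, compared with 5.67% of all genes in the lower direction. All 3 Selp_high libraries were below all 3 Selp_low libraries for 32 members, and above them for 0, compared with 9.85% of all genes below. By edgeR none of the members and 0% of all genes passed both thresholds, and the lowest adjusted p was 0.338. DESeq2 gave 5 members an adjusted p of 0.05 or less, all lower, compared with 2.74% of the genes it adjusted. The replicate number was also used as a block, although the labels do not state pairing and the check of it could not show it. With the block, DESeq2 gave 10 members an adjusted p of 0.05 or less, compared with 6.51% of the genes it adjusted. In edgeR's quasi-likelihood test with the block 0 members did, with a lowest adjusted p of 0.0882, and 25 were lower at an unadjusted p under 0.05, compared with 7.94% of all genes.

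Mrps18c again had the largest difference. Its levels of 26.4, 27.1 and 25.7 CPM in Selp_high 1 to 3 were closely grouped and far below the 55.8 to 74.5 CPM of Selp_low libraries. The log2 fold change was -1.37 ± 0.23 (SE), with an adjusted p of 0.338 by edgeR and 1.06e-04 by DESeq2. Mrps21 measured 51.9, 40.6 and 41.4 CPM in Selp_high paHSCs, all below the lowest Selp_low value of 75.1 CPM (log2 fold change -1.01 ± 0.24, DESeq2 adjusted p = 0.0307). These 2 genes were the members that DESeq2 placed past both thresholds, a share of the 77 near the 2.41% of the genes it adjusted that passed both and were lower.

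A further 3 members had an adjusted p under 0.05 by DESeq2 with smaller folds. Mrpl51, a mitochondria-specific large-subunit protein (chromosome 6, 125168764 to 125173232, plus strand), measured 117, 146 and 174 CPM in Selp_low and 81.9, 76.7 and 79.3 CPM in Selp_high paHSCs (log2 fold change -0.92 ± 0.24). Mrpl32, a large-subunit protein whose precursor is cut by the m-AAA protease before it joins the ribosome (chromosome 13, 14782769 to 14787750, minus strand), measured 80.4, 80.5 and 84.2 against 41.6, 51.4 and 50.5 CPM (-0.81 ± 0.22). Mrps14, of the small subunit, measured 199, 209 and 209 against 139, 106 and 112 CPM (-0.83 ± 0.23). In all 3 genes the groups were well apart, and the Selp_low libraries agreed closely in Mrpl32 and Mrps14. Mrpl57 had an adjusted p of 0.0798 by DESeq2 and 0.0136 with the replicate block, with 73.1, 126 and 103 against 53.1, 59.3 and 55.4 CPM.

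The 3 paralogs of the bacterial S18 protein differed in size. Mrps18b, of the small subunit, measured 15.7, 18.7 and 14.8 CPM in yHSCs, 26.8, 24.8 and 22.9 in Selp_low and 20.4, 16.8 and 16.6 in Selp_high paHSCs. Mrps18a, of the large subunit, measured 62.3, 47.7 and 48.3, then 79.5, 76.8 and 68.8, then 74.2, 51.1 and 59.2 CPM. The log2 fold change of Selp_high over Selp_low paHSCs was -0.51 ± 0.25 for Mrps18b and -0.33 ± 0.23 for Mrps18a, compared with -1.37 ± 0.23 for Mrps18c. Selp_low paHSCs were highest in all 3 paralogs, and the Selp_high libraries overlapped them in Mrps18a alone. The difference between paralogs was not tested.

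At the other end, Mrps27, a small-subunit protein with pentatricopeptide repeats, had the highest log2 fold change (0.56 ± 0.33). It measured 32.4, 26.0 and 27.6 CPM in Selp_low and 60.7, 27.1 and 42.5 in Selp_high paHSCs, so the groups overlapped and Selp_high 1 set much of the mean. Mrps31 (0.30 ± 0.31) and Mrps6 (0.25 ± 0.32) also had their highest level in Selp_high 1, at 33.2 and 33.7 CPM. All 11 members above 0 had unadjusted p-values of at least 0.139.

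Subunit and origin again made little difference, with medians of -0.37 for the large and -0.35 for the small subunit, and -0.38 and -0.30 for bacterial and mitochondria-specific members. The 53 members without overlap had a median of -0.38. Without Selp_high 1 the median was -0.51 with 23 members at an unadjusted p under 0.05, and without Selp_high 2 it was -0.28 with 11, of which 10 were lower and 1 higher. Members minus all genes was -0.0712 without Selp_high 2 and -0.18 without Selp_high 3, compared with -0.26 with all libraries. The count was 7 without Selp_high 3, and 9, 5 and 10 without Selp_low 1, 2 and 3, at medians between -0.37 and -0.35. Leaving out Selp_low 2 and 3 together left -0.34 with 1 such member. With library totals alone the members' median was 0.09 and that of all genes 0.37, so the sign of the members' own median turned while they stayed 0.29 below all genes. Without a filter on low counts the members (-0.31) were no longer below the median of all genes (-0.39).

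The comparison of Selp_high paHSCs with yHSCs, which shares its controls with that of Selp_low paHSCs, gave smaller values, also mostly above 0. Of 77 members 71 were above 0, with a median log2 fold change of 0.24, while the median of all 20017 genes tested was -0.03 and 47.8% of them were above 0. Unadjusted p was under 0.05 for 2 members, Mrpl52 and Mrpl20, compared with 4.48% of all genes in the higher direction, which is near the members' share. Libraries did not overlap for 9 members, all higher, compared with 8.29% of all genes. The thresholds were passed by 0 members by edgeR, where 0.165% of all genes passed, and the lowest adjusted p of a member was 0.476. DESeq2 gave 0 members an adjusted p of 0.05 or less, compared with 2.51% of the genes it adjusted.

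Mrpl52 measured 41.4, 41.4 and 31.9 CPM in Selp_high paHSCs, all above the 19.9 to 24.0 CPM of yHSCs (log2 fold change 0.77 ± 0.26, unadjusted p = 0.0195). Mrpl20 measured 56.3, 69.7 and 60.8 against 33.2 to 49.8 CPM (0.67 ± 0.28), and Mrps16 71.1, 60.5 and 63.4 against 30.4 to 53.9 CPM (0.71 ± 0.30, unadjusted p = 0.0503). These 3 genes, Mrpl58 (0.64 ± 0.29) and Mrpl11 (0.42 ± 0.25) were among the members higher than in yHSCs in both paHSC fractions, with no overlap. Both comparisons share the same yHSC libraries. The lowest values were -0.38 ± 0.31 for Mrpl9, -0.23 ± 0.25 for Mrpl32 and -0.08 ± 0.31 for Mrps30, each with overlapping groups. Mrps18c had 0.09 ± 0.50, since yHSC 1 lay above and yHSC 2 and 3 below the Selp_high libraries. The median of the members was 0.15 and 0.12 without yHSC 2 and without Selp_high 1, and to 0.03 with both left out. Without yHSC 1 it was 0.45, with 15 members at an unadjusted p under 0.05, and without yHSC 2 or yHSC 3 it was 0.15 or 0.16 with 0 such members.

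The list of mitoribosomal proteins with other symbols held 5 genes. Chchd1 and Aurkaip1, both of the small subunit, had log2 fold changes of 1.31 ± 0.25 and 0.83 ± 0.25 for Selp_low paHSCs over yHSCs and -0.70 ± 0.22 and -0.66 ± 0.26 for Selp_high over Selp_low paHSCs, all at an unadjusted p of 0.0378 or less. Gadd45gip1, of the large subunit, had 0.77 ± 0.36 and -0.57 ± 0.37. Dap3, a GTP-binding small-subunit protein also known from apoptosis, had 0.18 ± 0.21 and 0.12 ± 0.23, and Ptcd3, with pentatricopeptide repeats, -0.15 ± 0.24 and 0.28 ± 0.29. The pentatricopeptide repeat proteins Ptcd3 and Mrps27 were thus both slightly below 0 in the first comparison and above 0 in the second, none past a threshold.

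The other machinery of mitochondrial translation had medians near 0 in Selp_low paHSCs over yHSCs. Of 13 translation factors, 1 was higher (Tsfm, an elongation factor, log2 fold change 0.80 ± 0.26) and 1 lower (Guf1, a GTPase related to elongation factors, -0.60 ± 0.24) at an unadjusted p under 0.05 in Selp_low paHSCs over yHSCs, with a median of 0.10. Over all genes, 7.11% were higher and 4.17% lower by the same rule. Of 17 mitochondrial aminoacyl-tRNA synthetases, which charge tRNAs for this ribosome, 1 was higher and 0 lower, with a median of -0.15. The higher one, Lars2, measured 39.0, 88.6 and 82.3 CPM in yHSCs and 60.2, 779.6 and 305 in Selp_low paHSCs, so it rested on Selp_low 2 and 3. Of 20 factors for mitoribosome assembly and rRNA modification, 1 was higher (Mpv17l2, 0.87 ± 0.24) and 1 lower (Gtpbp10, a GTPase of large-subunit assembly, -0.76 ± 0.30), with a median of 0.09. Of 11 tested genes for mitochondrial DNA maintenance and transcription, 0 passed in either direction and the median was -0.08. Tfam, which packages mitochondrial DNA, had 0.25 ± 0.22.

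For Selp_high over Selp_low paHSCs the medians of these 4 lists were 0.27, 0.48, 0.17 and 0.29, on the other side of 0 from the members' -0.37. Passing an unadjusted p under 0.05 were 0 translation factors, 2 synthetases (Vars2 and Wars2), 2 assembly factors (Noa1 and Dhx30) and 2 genes of mitochondrial DNA and RNA expression, all higher; with the replicate block these counts were 2, 5, 4 and 3. Of all genes tested, 6.88% passed in the higher direction, and 10.1% with the block. Of the last, Polrmt, the mitochondrial RNA polymerase, measured 20.5, 26.3 and 20.5 CPM in Selp_low and 59.97, 38.3 and 40.9 in Selp_high paHSCs (log2 fold change 1.00 ± 0.28), with no overlap. Twnk, the mitochondrial helicase, had 0.62 ± 0.23. By edgeR the lowest adjusted p in these 4 lists was 0.332 in the first comparison and 0.338 in the second.

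**Figure D5:**
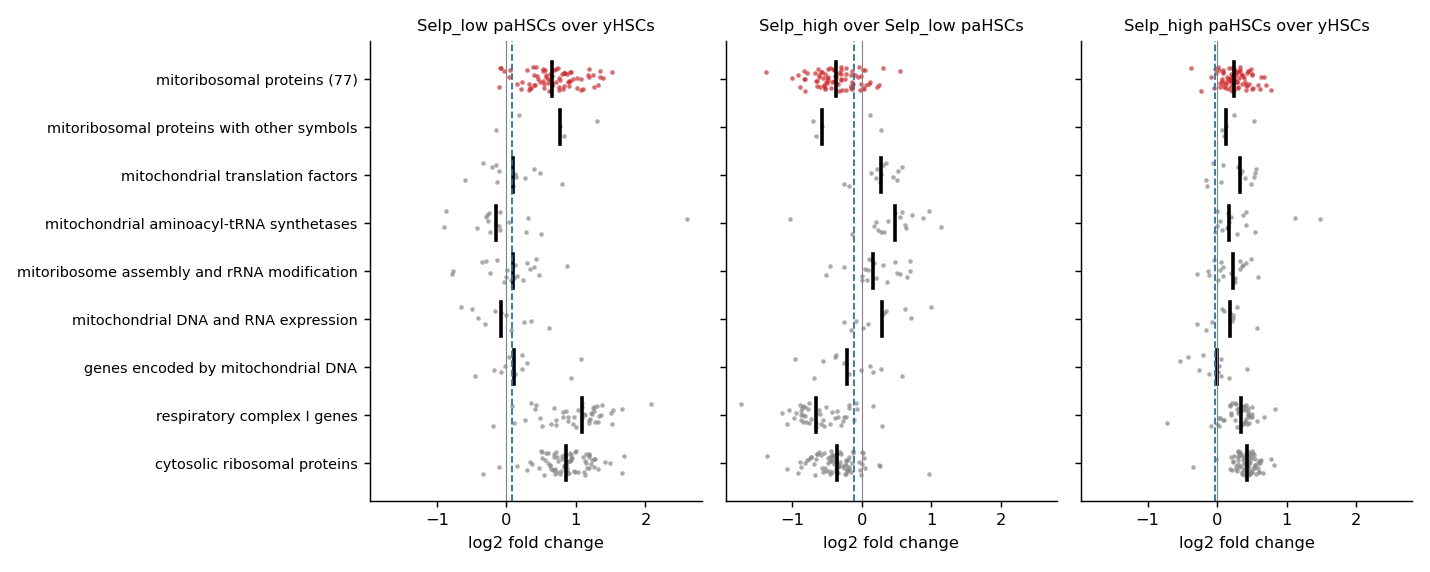
Fitted log2 fold changes of the 77 mitoribosomal members (red) and of the genes of 8 other lists (grey) in the 3 comparisons; black bars are list medians, the dashed blue line is the median of all genes tested and the grey line is 0. Members, cytosolic ribosomal proteins and complex I genes lie to the right in Selp_low paHSCs over yHSCs (medians 0.66, 0.86 and 1.08) and to the left in Selp_high over Selp_low paHSCs (-0.37, -0.36 and -0.65).

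Genes of 2 other large complexes were also mostly higher in Selp_low paHSCs. For Selp_low paHSCs over yHSCs the median log2 fold change was 0.86 over 78 tested cytosolic ribosomal protein genes, 61 of them higher at an unadjusted p under 0.05, compared with the 7.11% of all genes. It was 1.08 over 46 tested genes of respiratory complex I and its assembly, of which 35 were higher. For Selp_high over Selp_low paHSCs the medians were -0.36, with 7 lower, and -0.65, with 23 lower; with the replicate block 22 cytosolic ribosomal protein genes were lower. The shares of all genes were 5.67% and, with the block, 7.94%, so the 7 of 78 without the block lay near the background. The 12 tested protein genes of mitochondrial DNA, which hold the products that the mitoribosome makes, had medians of 0.11 and -0.21, and 0 passed in either comparison. Their sum was 14055, 6396 and 3606 CPM in yHSCs, 9960, 8046 and 4967 in Selp_low and 6767, 8848 and 4948 in Selp_high paHSCs. All 3 groups overlapped in this sum, whereas in the members' sum of TMM CPM the Selp_low libraries were apart from the other 2 groups.

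Promoter sequences were taken from RefSeq on build GRCm38.p6, as 250 bases before and 50 after each gene start, and 69 members matched with 75 windows. Nuclear genes for mitochondrial proteins are known for binding sites of the factors GABP, NRF1 and YY1. The letters CCGGAAG (GABP), searched on both strands, were in 26 of 75 member windows (34.7%), in 8.86% of all 32851 windows and in 11.6% of those of protein-coding genes. GCATGCGC (NRF1) was in 8 member windows (10.7%), compared with 2.71% of all and 3.52% of protein-coding windows. AAGATGGC (YY1) was in 12 (16%), compared with 2.75% and 3.05%. CCGGAAG and AAGATGGC can share the letters AAG, and GCATGCGC can overlap its own reverse complement. At least 1 was present for 38 of the 69 members, and 8 held 2 of them.

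Stretches around the letters of GABP are shown for members with the largest differences, upstream of the start and 5′ to 3′ on the gene's strand, with the matched letters in capitals (CTTCCGG is the reverse strand of CCGGAAG). The match farthest upstream begins 156 bases before the start in Mrps18c, 90 in Mrpl51, 17 in Mrpl58, 74 in Mrps16 and 47 in Mrpl52.
Mrps18c (GRCm38.p6 chr5:100798573-100798639, plus strand): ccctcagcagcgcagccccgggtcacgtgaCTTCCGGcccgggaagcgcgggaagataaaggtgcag
Mrpl51 (chr6:125192080-125192146, plus strand): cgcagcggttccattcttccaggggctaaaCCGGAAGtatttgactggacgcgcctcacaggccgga
Mrpl58 (chr11:115403705-115403751, plus strand): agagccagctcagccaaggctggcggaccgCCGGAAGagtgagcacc
Mrps16 (chr14:20393528-20393594, minus strand): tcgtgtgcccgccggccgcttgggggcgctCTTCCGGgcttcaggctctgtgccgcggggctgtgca
Mrpl52 (chr14:54426832-54426898, plus strand): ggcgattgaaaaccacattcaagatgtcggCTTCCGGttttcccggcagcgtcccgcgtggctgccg
Of the NRF1 letters, 1 match per gene is capitalised, as their reverse strand GCGCATGC, for Mrpl32, which was lower in Selp_high than in Selp_low paHSCs, and for Mrpl9, whose groups overlapped in each comparison. Both genes hold further matches that are not capitalised, overlapping the one shown and, in Mrpl32, also nearer the start.
Mrpl32 (chr13:14613087-14613154, minus strand): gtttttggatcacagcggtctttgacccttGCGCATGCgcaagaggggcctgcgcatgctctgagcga
Mrpl9 (chr3:94443278-94443335, plus strand): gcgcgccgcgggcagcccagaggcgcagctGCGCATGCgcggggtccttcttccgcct

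Mrps21 and Mrpl57 held the GABP letters as well, 18 and 4 bases after the start, and Mrpl20 held none of the 3 strings in its window. Members with and without the GABP letters were compared by their medians. For Selp_low paHSCs over yHSCs the medians were 0.74 over 25 tested members with the letters and 0.63 over 43 without, and for Selp_high over Selp_low paHSCs -0.42 and -0.30. For NRF1 the medians with and without were 0.64 and 0.70 in the first comparison, and for YY1 0.70 and 0.66. Mrps27, which ran against the others, also held the GABP and YY1 letters.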

How the data were processed

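The data are whole-number read counts per gene that the authors deposited without normalization. Per the authors' methods and the submitters' processing notes, cDNA came from an ultra-low-input kit, reads were trimmed with fastp, aligned with HISAT2 2.2.1 to mm39 and counted with featureCounts 2.0.6; CASAVA 1.8 and DESeq2 1.42.0 are also named. Strandedness, annotation release and multi-mapping were not stated in the sources used here. The table held 0 other columns of per-sample values. Counts were analysed in R 4.3.3 with edgeR 4.0.16 (TMM, filterByExpr by group, quasi-likelihood test with the legacy setting, each pair of groups fitted alone, Benjamini-Hochberg over all genes tested), DESeq2 1.42.0 and limma 3.58.1; figures used Python 3.11.15 and matplotlib 3.10.9. Scripts were tested on simulated data. A gene was called at an adjusted p up to 0.05 with a log2 fold change of 1 or more in either direction. CPM were scaled over all 9 libraries. A count of 0 was read as up to 3 counts; this floor covers counting error only.

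Libraries were grouped by their titles. The 78 members, the lists and the alternatives were chosen with earlier results of these data known. Named members were, per comparison, the 3 highest and 3 lowest and up to 6 with the lowest unadjusted p under 0.05; the 3 highest and lowest per length; and members with a set role. Of other lists, up to 3 genes per comparison with the lowest p were named. Mrpl55, the pseudogenes, Dap3, Ptcd3, Gadd45gip1, Tfam, Lrpprc and Slirp were named outside these rules, with values known. Same-numbered Selp_high and Selp_low libraries had residual correlations of 0.177, 0.277 and 0.302, above the 0.1 taken as pairing. Values with a replicate block therefore stand beside that comparison. Same-numbered libraries with yHSCs had correlations of -0.421 to 0.0908. Differently numbered Selp_high and yHSC libraries, from mice of different ages, reached 0.454 and 0.408, so this check cannot show pairing. Alternatives covered normalization, low-count filters, DESeq2, voom quality weights, robust and newer edgeR fits, protein-coding genes alone, 1 fit of all 9 libraries, the replicate block and left-out libraries. Promoter windows were RefSeq's on GRCm38.p6, and no coordinates were converted.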

Additional observations from a re-analysis of the deposited data

How the results depend on the processing

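The number of members called was 0 by edgeR under every alternative run. DESeq2 called 2 for Selp_high over Selp_low paHSCs, all lower, and 7 for Selp_low paHSCs over yHSCs, all higher. With the replicate block it called 2 and 6. Of all genes tested, the block then gave 980 of 20370 called lower and 379 of 20437 called higher, in the same order. Voom with quality weights called 21 members for Selp_low paHSCs over yHSCs. For voom and most alternative counts at an unadjusted p, here and above, the share of all genes was not counted. Members at an unadjusted p under 0.05 for Selp_high over Selp_low paHSCs (17) numbered 8 with no filter, 31 with voom, 28 with DESeq2 and the replicate block, 0 with library totals, 1 without Selp_low 2 and 3, and 5 to 23 with each library left out. For Selp_high paHSCs over yHSCs (2) they numbered 1 with RLE or upper-quartile factors, no filter, DESeq2, protein-coding genes alone or library totals, 20 with voom, 6 in 1 fit of all libraries, 0 without yHSC 2 and Selp_high 1, and 0 to 15 with each library left out. For Selp_low paHSCs over yHSCs (39) they numbered 25 with upper-quartile factors or no filter, 59 with voom, 0 with library totals, 17 without yHSC 2, 4 without Selp_low 2 and 3, and 17 to 52 with each library left out. The median log2 fold change of members was 0.0857 with library totals for Selp_high over Selp_low paHSCs. For Selp_low paHSCs over yHSCs it was 0.84 with voom, 0.11 with library totals and 0.56 to 0.83 with each library left out. The cause was not tested, apart from library totals, which leave out the scaling factors. The library totals and the paired omissions were added after the data were seen. With yHSCs, same-numbered libraries had no correlation above 0.1, and the edgeR block moved the counts at an unadjusted p from 39 to 41 and from 2 to 3.

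Of 1296 values of named members under alternatives, 1210 kept their direction and side of the threshold, 38 passed it (by DESeq2, its block or voom) and 48 changed sign. For Selp_high over Selp_low paHSCs, Mrps5 was -0.0198 with upper-quartile factors and -0.0277 with protein-coding genes alone, Mrpl3 -0.0044 and -0.0132, Mrps6 -0.0199 with voom, and Mrps30 0.0034 and Mrpl44 0.0286 with no filter. With libraries left out the ranges were -0.0091 to 0.44 (Mrps6), -0.0425 to 0.18 (Mrps5), -0.0507 to 0.21 (Mrpl3), -0.41 to 0.11 (Mrps30) and -0.35 to 0.17 (Mrpl44). For Selp_high paHSCs over yHSCs, Mrps18c was -0.0161 with upper-quartile factors and Mrps5 -0.086 with voom, and the ranges were -0.18 to 0.90 (Mrps18c), -0.10 to 0.15 (Mrps5), -0.19 to 0.31 (Mrps34), -0.0386 to 0.33 (Mrps36) and -0.44 to 0.12 (Mrps30). For Selp_low paHSCs over yHSCs, Mrps5 was -0.0464 and Mrps30 -0.0395 with no filter, Mrps31 0.11 and Mrps5 -0.0414 with voom, and Mrps5 -0.0032 and Mrps30 -0.0029 in 1 fit of all libraries, with ranges of -0.26 to 0.0146 (Mrps31), -0.14 to 0.16 (Mrps5), -0.0781 to 0.13 (Mrps30), -0.30 to 0.10 (Mrps2) and -0.32 to 0.0069 (Mrpl9).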

Other observations

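Processed pseudogenes of 4 members (Mrpl23, Mrpl48, Mrpl27 and Mrps36) were listed in the count table. Mrpl23-ps1 held 128 to 298 counts per library, the most of the 6 such pseudogenes, and Mrps36-ps3 held 0 counts in all 9. How reads shared with the parent genes were assigned is not given in the sources used here.

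Slirp, a partner of Lrpprc in keeping mitochondrial mRNAs stable, was at or under 0.0326 CPM in every library, below the limit that a count of 0 allows, while Lrpprc measured 26.0 to 68.8 CPM. Slirp was the gene of mitochondrial DNA and RNA expression that was not tested.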
